A study of Mus musculus with 20 samples.

Results

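Long non-coding RNAs (lncRNAs) carry m6A peaks in their exons, and these peaks were followed here through 10 m6A immunoprecipitations of mouse embryonic stem cells. A peak was taken when its summit lay in a same-strand exon of a GENCODE M21 basic gene of the type lincRNA, antisense, processed_transcript, bidirectional_promoter_lncRNA or macro_lncRNA, and in no same-strand protein-coding gene. This held for 4430 of the 438180 deposited peaks. All peaks were merged over the libraries by strand, wherever they overlapped by at least 1 bp, into 87498 regions. Of these, 893 held at least 1 peak that met the rule, on 617 of the 9795 annotated genes of these types. They are called lncRNA exon regions. Any peak merged into such a region counts as present in its library, also one whose summit lies outside the lncRNA exon. No region lay in a gene of the macro_lncRNA type. By type there were 403 regions in lincRNAs, 293 in antisense genes, 155 in processed transcripts and 42 in bidirectional promoter lncRNAs.

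The cells were C57BL/6 embryonic stem cells, all grown with LIF, the GSK3 inhibitor CHIR99021 and the MEK inhibitor PD0325901. The labels name 5 groups: a Mettl3 control, the Mettl3 knockouts KO1 and KO2, a Ythdc1 control and a conditional Ythdc1 knockout (cKO). Each group had 2 immunoprecipitated libraries of chromatin-associated RNA, and the 10 input libraries were not analysed here. How the alleles were made, how many clones each knockout came from, and how and when Ythdc1 was removed are not stated in the labels. The labels do not say whether replicates were separate cultures; p-values then reflect only library-to-library spread, possibly technical.

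METTL3 is the catalytic subunit of the complex that writes m6A on nascent nuclear RNA, mostly at an adenosine in the context called DRACH, of which GGAC is the most common core. YTHDC1 is the nuclear protein that binds m6A and takes part in the splicing, export and decay of the RNAs that carry it. Many lncRNAs stay on chromatin, where some silence imprinted genes or the X chromosome (Kcnq1ot1, Airn, Xist), and others are found in nuclear bodies (Neat1, Malat1). A peak shows that antibody-bound fragments were called over background at that site. With no input analysed, less m6A and less of the transcript cannot be told apart where a peak is absent.

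The sequences at the summits show what the antibody-bound fragments held. The first 8 stretches below reach 30 nt to each side of a summit, that of the region's lncRNA exon peak with the authors' lowest p-value. They are written on the RNA's own strand, and have each GGAC in capitals. Platr31, Firre and Meg3 are shown for regions that had a peak in both Mettl3 control libraries and in no Mettl3 knockout library. Tug1 and AI506816 stand for regions with a peak in all 10 libraries. Gm12865 is the gained region of highest fold in the Mettl3 knockouts, Tbx3os1 the one in the Ythdc1 cKO, and Xist shows a window with 2 GGAC. The positions are those of mm10, and the letters come from GENCODE M21 transcripts.
Platr31, chr6:127109723-127109783, plus strand: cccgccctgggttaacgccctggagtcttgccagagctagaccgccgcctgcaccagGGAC
Firre, chrX:50564550-50564610, minus strand: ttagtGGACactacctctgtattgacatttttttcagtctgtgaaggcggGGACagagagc
Meg3, chr12:109545905-109545965, plus strand: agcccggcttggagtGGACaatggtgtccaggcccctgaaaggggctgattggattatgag
Tug1, chr11:3646665-3646725, minus strand: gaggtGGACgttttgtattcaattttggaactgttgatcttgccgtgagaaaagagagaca
AI506816, chr5:23702751-23702811, minus strand: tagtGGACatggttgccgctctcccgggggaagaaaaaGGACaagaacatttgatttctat
Gm12865, chr4:118997084-118997144, minus strand: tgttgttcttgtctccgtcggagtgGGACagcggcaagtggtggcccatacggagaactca
Tbx3os1, chr5:119574764-119574824, minus strand: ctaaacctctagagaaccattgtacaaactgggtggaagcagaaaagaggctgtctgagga
Xist, chrX:103466308-103466368, minus strand: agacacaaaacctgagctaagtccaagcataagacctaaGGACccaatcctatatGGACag
Tbx3os1 has no GGAC in this window, and it holds 3 DRACH matches.

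Fewer lncRNA exon peaks were called in the Mettl3 knockouts than in their control. The Mettl3 control libraries had 465 and 457 of them, KO1 had 295 and 293, and KO2 had 416 and 394. The Ythdc1 control had 536 and 534, and the cKO 514 and 526. As a share of all peaks of the library on the main chromosomes, this was 1.03% and 0.978% in the Mettl3 control, 0.720% and 0.715% in KO1, and 0.935% and 0.920% in KO2. Both control libraries lay above all 4 knockout libraries. The mean share was 1.00% ± 0.0345 (SD, n = 2) in the control and 0.823% ± 0.122 (SD, n = 4) in the knockouts, a difference of -0.180 points (exact permutation test, two-sided, p = 0.133). Even complete separation allows no p below 0.0667 with 2 against 4 libraries, and 0.333 with 2 against 2.

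The Ythdc1 libraries moved less, and in a direction that depends on what the peaks are compared with. The share of all peaks was 1.23% and 1.27% in the control and 1.13% and 1.15% in the cKO, a difference of -0.109 points (exact permutation test, two-sided, p = 0.333). Among peaks with a summit in any same-strand exon, the lncRNA share was 2.67% and 2.70% in the Ythdc1 control and 3.13% and 3.17% in the cKO, higher by 0.466 points (exact permutation test, two-sided, p = 0.333). In the Mettl3 lines the same share of exonic peaks was 2.80% and 2.69% in the control, 2.07% and 2.04% in KO1, and 2.49% and 2.38% in KO2. Coding exon peaks numbered 12215 and 12107 in the Ythdc1 control and 9530 and 9632 in the cKO, so the denominator of this share also differed.

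**Figure D1:**
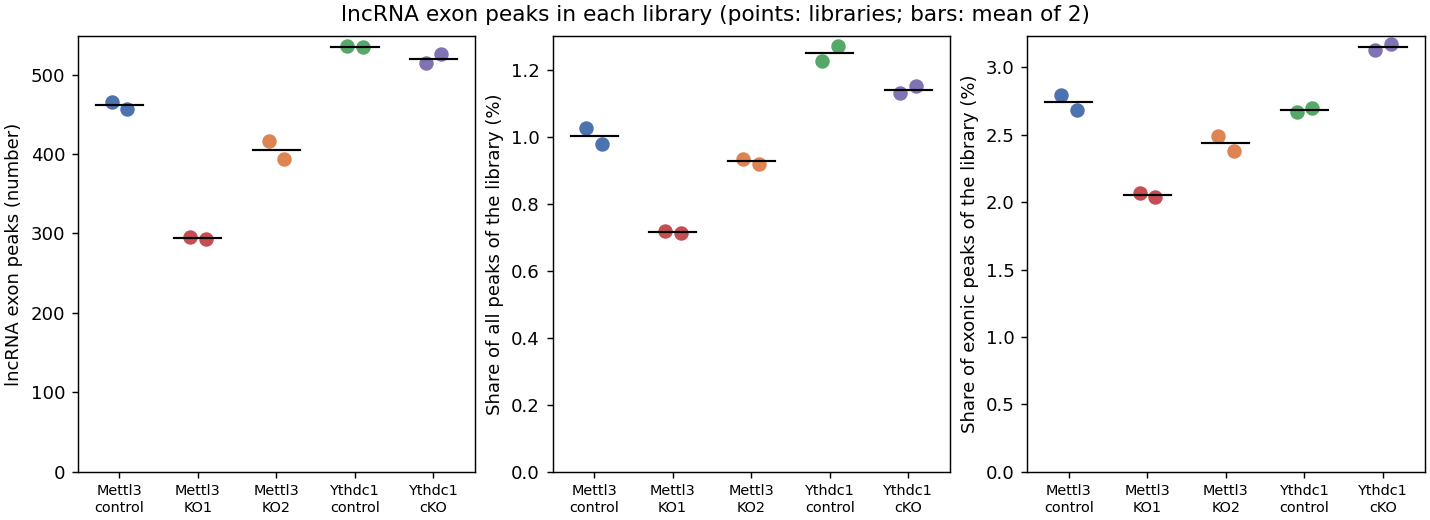
lncRNA exon peaks in each library, as a number, as a percent of all peaks of the library and as a percent of its exonic peaks; points are libraries and bars the mean of 2. KO1 is lowest in all 3 panels, and the Ythdc1 cKO lies below its control in the middle panel and above it in the right one.

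Across the libraries as a whole, the deposited lists held 40980 to 46761 peaks. Read totals are not given in the sources used here, so depth was judged by the background pile-up that the authors' fold and p-value imply. This was solved at 2000 of the weaker plus-strand peaks per library, and the median is given. In each library the median was also the most common value of this background. It was 16.38 and 18.15 reads in the Mettl3 control, 16.28 and 16.49 in KO1 and 16.12 and 14.92 in KO2. The Ythdc1 control had 17.77 and 15.69, and the cKO 20.03 and 19.27. KO1, with the fewest lncRNA exon peaks, had a background close to that of control replicate 1, and the cKO had the highest. The targeted genes cannot be checked from peaks, since a peak does not measure expression: peaks in the span of Mettl3 numbered 1 in both Mettl3 control libraries, 0 in both KO1 and 1 in both KO2 libraries, 3 and 2 in the Ythdc1 control and 1 and 0 in the cKO. Those in the span of Ythdc1 numbered 7 and 7 in the Ythdc1 control, 7 and 6 in the cKO, and 6 or 7 in the Mettl3 lines.

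Of the 450 lncRNA exon regions with a peak in both Mettl3 control libraries, 69 were without a peak in every Mettl3-deficient library (lost, 4 libraries), 223 had a peak in all 4 (kept) and 158 in some. The lost share was 15.3%, beside 12.8% over all regions and 6.40% over the 10285 coding exon control regions. The kept share was 49.6%, beside 58.2% over all regions and 71.5% over coding exon regions. Gained regions, called in all 4 Mettl3-deficient libraries but not in the control, were 2 of the 233 with a peak in all 4, a share of 0.858% beside 4.4% over all regions. The lost share was thus near that of all regions and above that of coding exons. Counted by gene, 45 of 335 lost every control region and 145 kept every one. The same counts were not made over all genes, so these have no share to be set beside.

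The KO1 and KO2 lines, which share the control, differed in how many regions they lacked. In both KO1 libraries 149 regions were absent, 33.1% beside 23.8% over all regions, and in both KO2 libraries 87 were, 19.3% beside 18% over all regions. KO1 gained 8 of 262, or 3.05%, beside 12.5% over all regions. KO2 gained 37 of 371, or 9.97%, beside 14.8% over all regions. Antisense genes had the highest lost share in KO1, with 58 of 147 regions (39.5%), and lincRNAs had 65 of 210 (31.0%).

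Measured one library at a time, control regions of lncRNA exons were absent more often than those of coding exons in all 4 Mettl3 knockout libraries. Absent regions made up 38.7% and 40.9% of the lncRNA exon regions in KO1 and 24.2% and 26.0% in KO2. For coding exon regions the shares were 19.2%, 18.3%, 13.7% and 14.1% in the same libraries. Over all regions they were 29.4%, 29.3%, 22.8% and 24.3%, so KO2 was near the share over all regions. The mean was 32.4% ± 8.55 for lncRNA exons and 16.3% ± 2.80 for coding exons (SD, n = 4), a difference of 16.1 points (exact sign-flip permutation test, two-sided, p = 0.125, the smallest that 4 libraries can give). lncRNA exon peaks were lower in their libraries than coding exon peaks in rank, at a median fold percentile of 49.3 against 62.5 in the Mettl3 control. Within 5 bins of control peak height the mean difference was 13.9 points. In the highest bin 8.61% of the lncRNA exon regions and 1.47% of the coding exon regions were absent.

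In the Ythdc1 cKO the order was the other way round. Absent regions made up 17.1% and 15.9% of the 497 lncRNA exon control regions and 20.9% and 20.2% of the coding exon control regions. The difference was -4.08 points ± 0.335 (SD, n = 2), and -5.74 points within height bins (exact sign-flip permutation test, two-sided, p = 0.5, the smallest that 2 libraries can give). Over all regions the absent shares were 23.0% and 22.3%.

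**Figure D2:**
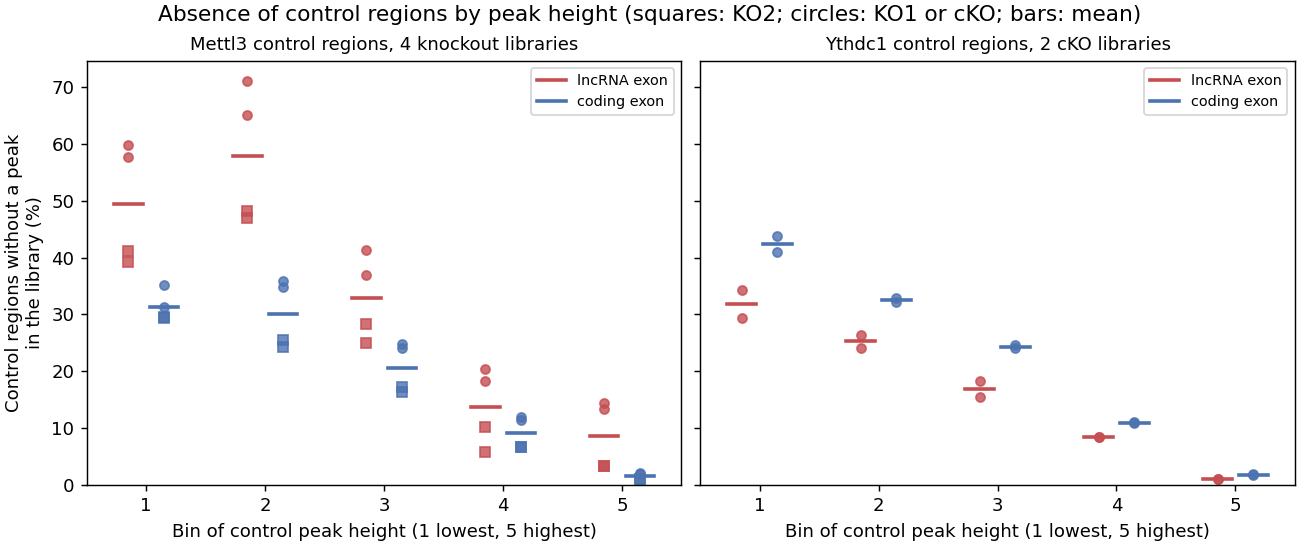
Percent of control regions without a peak in each knockout library (points; bars are means) against the bin of control peak height, for lncRNA exons (red) and coding exons (blue). In the Mettl3 lines the red means lie above the blue in all 5 bins, and in the Ythdc1 cKO below them in all 5.

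The lost region of highest fold in the Mettl3 knockouts lay in the last exon of Platr31, a pluripotency-associated transcript on the strand opposite Tigar. Fold enrichment is the authors' value at the summit, and the highest one where a library had several peaks in a merged region. For Platr31 it was 10.6 and 9.08 in the controls, and no other library, Ythdc1 lines included, had a peak there. Gm49030, opposite Arhgap22, had 8.40 and 7.13 in the controls, none in the knockouts or the Ythdc1 control, and 2.96 and 4.13 in the cKO. These 2 therefore also set the Mettl3 control apart from the Ythdc1 control. Gm29724, opposite Adamts8, had 4.63 and 4.87 in the controls, and peaks of 3.75 and 5.86 in the Ythdc1 control and 4.67 and 3.50 in the cKO. Gm27000 on the X chromosome had 6.21 and 5.70 in the controls and peaks of 3.59 to 5.32 in all 4 Ythdc1 libraries. Of the other lost regions of high fold, Gm47430, Gm44777 and AC148021.1 had peaks in some Ythdc1 libraries and Gm48829 in none.

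Taking the 69 lost regions together, 30 (43.5%) had a peak in both Ythdc1 control libraries and 31 (44.9%) in neither. Of the 223 kept regions, 202 (90.6%) had one in both and 14 (6.28%) in neither. No Ythdc1 library had a peak at 21 of the 69 (30.4%). Over all regions the same held for 1515 of the 4754 lost ones. Regions that the Mettl3 knockouts lacked were thus also often absent from a control line with METTL3, over all regions as in lncRNA exons. What part line differences have in the losses was not tested. For 32 of the 69 lost regions, the gene had another peak in its span in both controls, and for 22 of these 32 it had one in every knockout library as well. For kept regions this held for 143 of 223 and then for 120 of the 143. Among cKO comparison regions with another peak of the gene in both controls, both cKO libraries had one too for 15 of 22 lost and 218 of 239 kept regions. Firre is one of the 22, with 4 or 5 other peaks in each knockout library and 5 in each control.

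Only 2 regions were gained in the Mettl3 knockouts. One was in the first exon of Gm12865, with 4.87 and 6.25 in KO1, 12.1 and 8.41 in KO2, and 8.32 to 9.88 in the 4 Ythdc1 libraries. It was thus absent from the Mettl3 control alone. The other was in the last exon of Ifi30, a lysosomal thiol reductase gene that RefSeq lists as protein-coding, with 4.44 and 3.97 in KO1 and 3.08 and 2.71 in KO2.

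Kept regions reached the highest folds. Gm26672, opposite the Pcdhg protocadherin cluster, had 16 and 14.9 in the controls, 20.2 and 18.9 in KO1 and 32.5 and 30.4 in KO2. Tug1, a widely expressed lncRNA found largely in the nucleus, had 10.7 and 17.7 in the controls, 18.2 and 12.9 in KO1 and 17.5 and 17 in KO2. Fold scales differ between libraries, so these values say that the peaks were strong in each list and not that one group had more m6A. Gm5165 (11.8 to 17.8), Gm44997 (11.4 to 17.7), AC079441.1 (11.2 to 17.8), Gm12925 (11.2 to 19.9) and AI506816 (9.89 to 14.1) had strong peaks in all 6 Mettl3 libraries. The exon at the summit was 57 nt in Gm44997 and 427 nt in Gm12925, and their merged regions reach beyond it. Their folds may therefore come from peaks with a summit outside that exon. Gm28888 had 13.2 and 11.7 in the controls and 22.5 and 23.8 in KO2, and no peak in the Ythdc1 control.

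**Figure D3:**
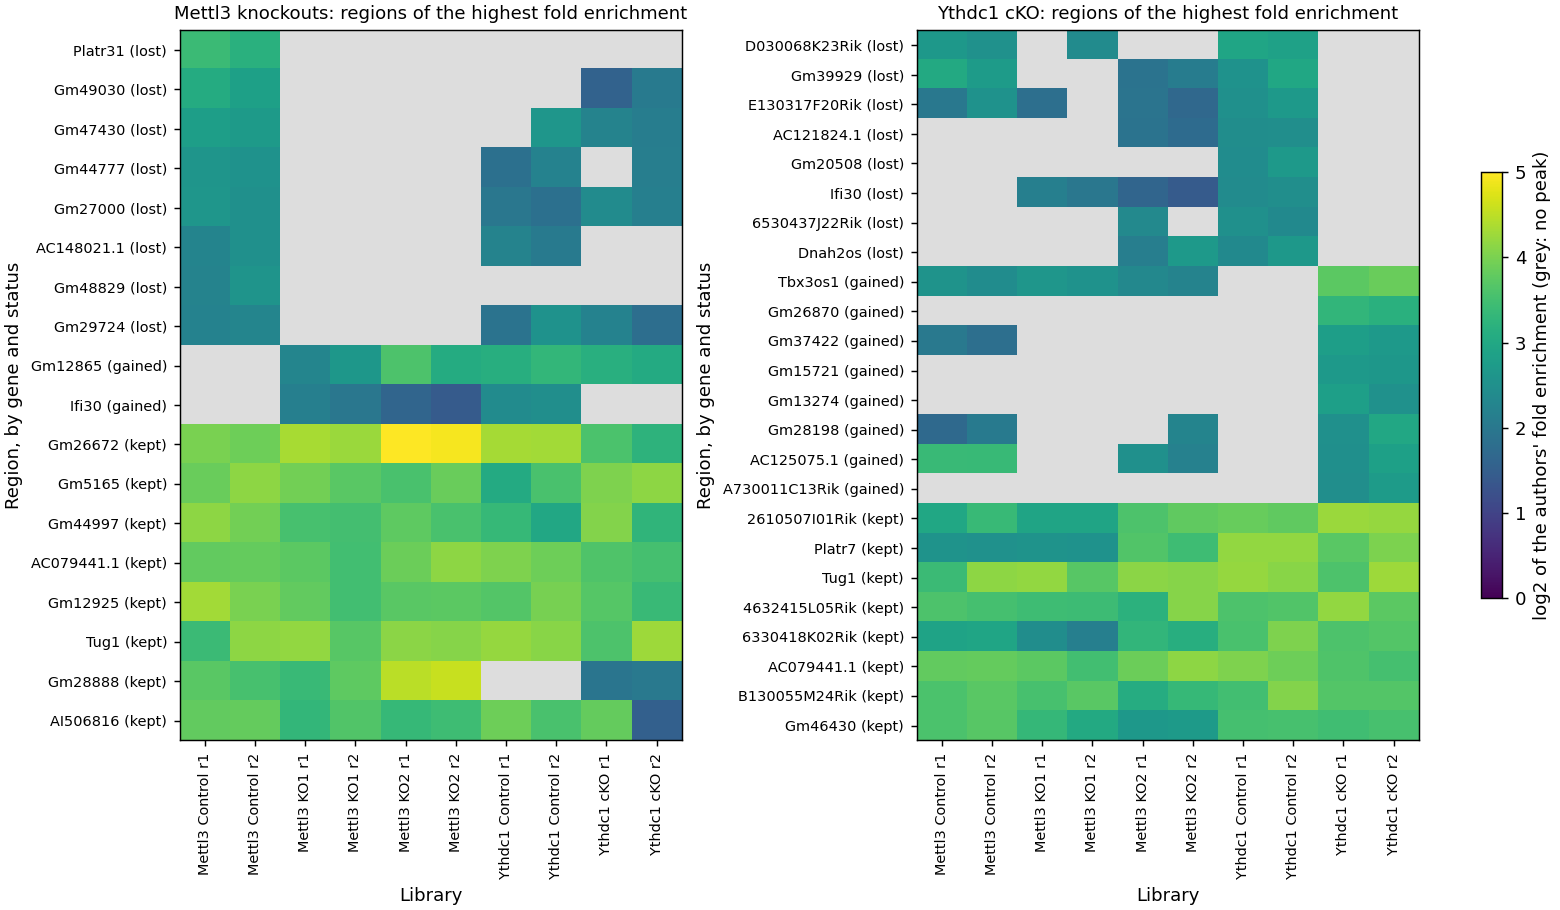
Log2 of the authors' fold enrichment for the lost, gained and kept regions of highest fold in each comparison, by library; grey means no peak. Only 2 regions fill the gained rows of the Mettl3 panel, and Platr31 and Gm48829 are grey outside the Mettl3 control.

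The Ythdc1 cKO lost and gained similar numbers of regions, and which number was higher depended on list length: 62 lost and 73 gained in the full lists, 76 and 59 in lists shortened to equal length. Of the 497 control regions, the 62 lost were 12.5%, beside 17.8% over all regions and 16% over coding exon regions. Kept regions numbered 395, or 79.5%, beside 72.4% over all regions and 74.8% over coding exon regions. The cKO gained 73 of 494, or 14.8%, beside 27.9% over all regions and 5.12% over coding exon regions. By gene, 46 of 375 lost every control region, 279 kept every one and 64 had a gained region, again without counts over all genes. The cKO also had the highest background pile-up, and its part in the gains was not tested.

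Tbx3os1, the RNA transcribed divergently from the pluripotency gene Tbx3, had the gained region of highest fold. It reached 13.4 and 14.6 in the cKO, had no peak in the Ythdc1 control, and had 4.70 to 6.15 in the 6 Mettl3 libraries. All 3 exon regions of Tbx3os1 were gained, the others at 3.60 and 6.41 and at 6.22 and 7.84. In Gm15721 (6.49 and 6.25), Gm13274 (7.11 and 5.78) and A730011C13Rik (5.52 and 6.68) the cKO libraries were the only ones with a peak. The gained Gm26870 region, at 9.76 and 9.01, also had peaks only in the cKO, while another region of this gene was kept in all 10 libraries. It lies near the start of the assembled chromosome 9 (chr9:3017971-3018149), where near-identical copies may share reads, so its position is uncertain. Gm37422 (6.99 and 6.46), Gm28198 (5.72 and 8.0) and AC125075.1 (5.62 and 7.15) had peaks in both Mettl3 controls as well.

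Among the lost regions of the cKO, D030068K23Rik had 7.67 and 7.31 in the Ythdc1 control and 6.34 and 5.80 in the Mettl3 control. Gm39929 had 5.82 and 7.93 in the Ythdc1 control and 8.16 and 6.69 in the Mettl3 control, and E130317F20Rik had 5.71 and 6.42 and then 4.01 and 5.86. These 3 were present in both control lines. AC121824.1, Gm20508, Ifi30, 6530437J22Rik and Dnah2os, at 5.17 to 6.53 in the Ythdc1 control, had no peak in the Mettl3 control. Kept regions of highest fold were in 2610507I01Rik (13.7 to 18.9 in the 4 Ythdc1 libraries), Platr7 (13.2 to 18.3), Tug1 (12.2 to 19.2), 4632415L05Rik (12.1 to 18.2), 6330418K02Rik (11.8 to 16.3), AC079441.1 (11.5 to 16.4), B130055M24Rik (11.3 to 16.8) and Gm46430 (11.1 to 11.7).

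The control lines themselves differed. Of the 450 regions of the Mettl3 control, 73 (16.2%) had no peak in either Ythdc1 control library, beside 25% over all regions and 4.65% over coding exon regions. Of the 497 of the Ythdc1 control, 98 (19.7%) had none in the Mettl3 control, beside 18.8% over all regions. By the same rule of absence from both libraries, 149 of the 450 were absent from KO1 and 87 from KO2.

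Over all 10 libraries, 195 of the 893 regions (21.8%) had a peak in every one, beside 18.1% over all regions and 37.9% of the coding exon regions. A single library held 147 regions (16.5%), beside 12% of the coding exon regions. Split by group, a single Ythdc1 control library held 6.05% of the regions, beside 5.06% over all regions, and a single cKO library 5.94%, beside 4.72%. In the Mettl3 lines such shares were below those over all regions. They were 1.23% beside 3.22% in the control, 0.896% beside 5.24% in KO1 and 2.35% beside 3.41% in KO2. Another 34 regions (3.81%) had a peak in all libraries but those of KO1, beside 1.27% over all regions, and 21 (2.35%) in all but the 4 Mettl3 knockout libraries, beside 1.22% over all regions. Both cKO libraries and no other held 40 regions, a share of 4.48% beside 6.38% over all regions. Both Mettl3 controls and no other held 21 (2.35%), beside 1.73% over all regions, and both Ythdc1 controls and no other held 24 (2.69%), beside 2.33% over all regions.

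Imprinted lncRNAs are expressed from a single parental allele, and 9 of the 11 listed genes had a region, 51 regions in all. In the Mettl3 knockouts 3 of their 33 control regions were lost, 21 kept and 9 present in some libraries, where 12.8% of all regions were lost and 58.2% kept. In the cKO 3 of 32 were lost, 27 kept and 2 gained, where 17.8% of all regions were lost and 72.4% kept. Of all regions with a peak in both cKO libraries, 27.9% were gained. These counts are small and were not tested against the shares over all regions. Kcnq1ot1, the antisense RNA that silences a cluster of genes on its own chromosome, carried 29 of these regions, more than any other lncRNA. It had 21 and 24 regions with a peak in the Mettl3 control, 16 and 19 in KO1; KO2 had 19 and 19, the Ythdc1 control 20 and 20, and the cKO 19 and 18. All of them lay in its single long exon, and 14 of the 21 control regions were kept in the Mettl3 knockouts and 16 of 19 in the cKO. The regions lost in the Mettl3 knockouts lay 53.2 and 45.4 kb from its start, with folds of 2.46 to 3.03. At 78.5 kb the fold was 9.26 and 7.64 in the Mettl3 control, 3.83 and 3.43 in KO1, and 7.70 and 7.35 in KO2. At 72.4 kb the fold was 10.4 and 4.35 in the Mettl3 control, 10.1 and 9.38 in KO1, and 6.90 and 8.49 in KO2. The region at 76.7 kb was at 4.01 and 7.30 in the control and 5.37 and 6.67 in KO2, and had no peak in KO1.

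**Figure D4:**
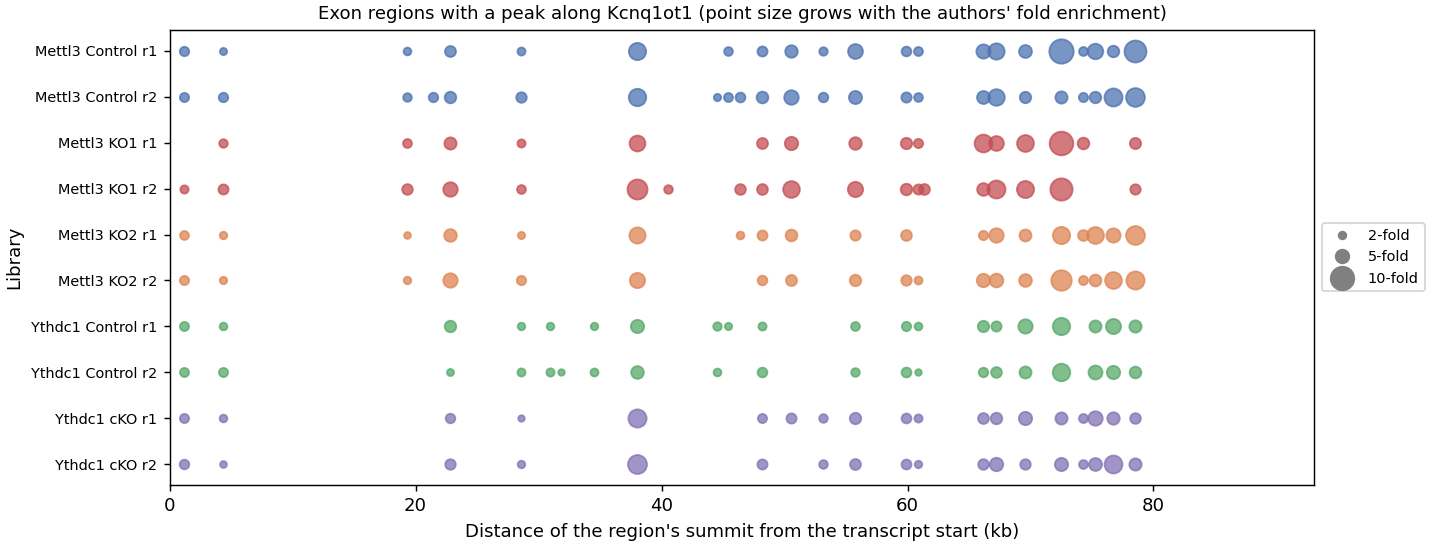
Regions with a peak along the Kcnq1ot1 transcript in each library, by the distance of the summit from the transcript start in kb; point size grows with the authors' fold enrichment. Points run along most of the transcript in every library, and the positions at 76.7 and 75.3 kb are empty in both KO1 libraries.

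Meg3, an imprinted lncRNA of the Dlk1 locus, had 8 regions. Its last exon kept peaks in every library: the region 20.6 kb from the start had 3.96 and 2.79 in the Mettl3 control, 6.88 and 5.95 in KO1 and 5.51 and 5.05 in KO2. The Meg3 region printed above, 4.93 kb from the start, had 2.76 and 2.48 in the control and no peak in any other library. Its neighbours at the same locus differed. Rian, a snoRNA host, was kept in all 10 libraries at 4.31 to 6.40. Mirg, a microRNA host, had 5.58 and 4.29 in the Mettl3 control at 4.63 kb from its start. That region had no peak in KO1, and 6.28 in 1 of the KO2 libraries. At 11.7 kb Mirg had 1.89 and 2.00 in the control, none in KO1 and 2.63 in the other KO2 library. Snhg14, the host of the Prader-Willi region snoRNAs, kept both its regions in every library at 5.87 to 12.7. Airn, which silences Igf2r, had a peak in all 4 Ythdc1 libraries (3.52 to 7.05) and in no Mettl3 library.

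The X inactivation list gave 9 regions in 4 genes, of which 2 of 6 Mettl3 control regions were lost and 2 kept, and 4 of 4 Ythdc1 control regions were kept and 2 gained. With so few regions, these counts cannot be set apart from the shares over all regions. Those were 12.8% lost and 58.2% kept in the Mettl3 knockouts, and 72.4% kept and 27.9% gained in the cKO. Xist, the RNA that coats the inactive X chromosome, had 3 regions. The region 1.05 kb from its start had 4.51 and 5.97 in the Mettl3 control, none in the knockouts or the Ythdc1 control, and 6.34 and 5.30 in the cKO. In all 4 of these libraries a peak of the opposite strand, which carries the antisense gene Tsix, overlapped it, and in 3 that peak was the stronger. The region 16.9 kb from the start had 8.10 and 7.19 in the Mettl3 control, 2.74 in 1 KO1 library and 5.21 and 5.41 in the cKO, with no opposite peak. The remaining Xist region, 15.8 kb from the start, went the other way in the Mettl3 lines. It had 3.04 in 1 Mettl3 control library, 3.29 and 4.45 in KO1, 4.31 and 4.30 in KO2, and no peak in the Ythdc1 libraries. Tsix kept both its regions in all 10 libraries, at 2.91 to 9.45. Firre, which anchors chromatin near the nucleolus, had 3.17 and 3.16 in the Mettl3 control at 70.5 kb from its start. That region had no peak in the 4 knockout libraries, and 3.07 to 4.76 in the Ythdc1 libraries. Ftx, a gene of the X inactivation centre, had 3.96 and 4.09 in the control, 3.35 in 1 KO1 library and none in KO2.

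Nuclear and chromatin-bound lncRNAs had 25 regions in 10 of 19 listed genes. None of their 16 Mettl3 control regions was absent from all 4 knockout libraries, and 10 were kept, beside 12.8% and 58.2% over all regions. KO2 alone lacked 4 of the 16, beside 18% over all regions, and KO1 lacked none in both its libraries, beside 23.8%. In the cKO 2 of 19 were lost and 16 kept, beside 17.8% and 72.4% over all regions. Tug1 kept all 4 of its regions in all 10 libraries. The main region of 2900097C17Rik (Norad), which binds Pumilio proteins, was kept in all 10, at 6.52 to 13.3. Lncpint, a p53-induced lncRNA, kept the region 0.356 kb from its start in all 10, at 6.09 to 12. Pvt1, the neighbour of Myc, kept 2 regions, at 4.24 to 7.63 and at 2.51 to 5.30. Neat1, the scaffold of paraspeckles, had 6 regions of low fold, from 1.74 to 5.31, and kept the one 1.44 kb from its start. Sox2ot, whose locus spans Sox2, had no peak in the Mettl3 control, 5.21 in 1 KO1 library, 13.8 and 9.42 in KO2, and 4.85 to 6.13 in the Ythdc1 libraries. Malat1, named after its values were seen, kept its region near the start in all 10 libraries at 1.44 to 3.73, and an opposite-strand peak overlapped it in all 10 and was stronger in 9.

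Stem cell lncRNAs, those marked by pluripotency such as the Platr genes and Lncenc1, had 23 regions in 12 of 30 listed genes. In the Mettl3 knockouts 2 of 13 control regions were lost and 9 kept, and in the cKO 12 of 12 were kept and 3 gained, all 3 in Tbx3os1. Over all regions 12.8% were lost and 58.2% kept in the Mettl3 knockouts, and 72.4% were kept in the cKO, where 27.9% of the cKO regions were gained. Platr10 kept a region at 4.80 to 12.3 and Platr11 one at 5.56 to 11.6 in all 10 libraries. Lncenc1, Platr4 and Platr22, named after their values were seen, also had kept regions in both comparisons. The other 18 listed genes had no region, and a peak does not measure expression, so these peaks do not check the labelled cell type. In its last exon Platr20 had 7.43 and 7.19 in the Mettl3 control, none in KO1 and 5.73 and 5.63 in KO2. Its region 6.2 kb from the start had 3.41 and 3.26 in the control, 3.38 in 1 KO1 library and 4.26 in 1 KO2 library. The 2 lost regions were in Platr31 and Platr12, the latter with 4.31 and 4.96 in the Mettl3 control and 2.50 to 4.37 in the Ythdc1 libraries.

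Genes whose symbols mark them as transcribed opposite a neighbour had 34 regions in 24 of 285 listed genes. Of 16 Mettl3 control regions 5 were lost and 6 kept; KO1 lacked 10 and KO2 lacked 5. Over all regions 12.8% were lost, 58.2% were kept, 23.8% were absent from KO1 and 18% from KO2. In the cKO 3 of 18 were lost, 13 kept and 4 gained, beside 17.8% lost, 72.4% kept and 27.9% gained over all regions. Ino80dos was kept at 5.45 to 16.1 in all 10 libraries. Brip1os had 2 strong regions, of which 1 was kept in all 10 libraries and the other had 7.82 and 7.10 in the control, none in KO1 and 7.24 and 6.97 in KO2. Zbtb11os1 had 4.63 and 4.31 in the control, none in KO1 and 4.68 and 5.16 in KO2. Among snoRNA hosts 3 of 14 genes had 5 regions, with Snhg14 kept as above, and none of the 10 microRNA host genes had one.

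Several lncRNAs showed unlike changes along one transcript. Gm20687 had 5 regions, of which 2 were lost in the Mettl3 knockouts and gained in the cKO. At these the folds were 5.29 and 4.33 and 3.97 and 3.92 in the Mettl3 control and 4.66 and 4.59 and 4.14 and 3.01 in the cKO, with no peak in the other 6 libraries. The end of 4933407K13Rik, 57.1 kb from its start, had the same pattern, at 3.96 and 4.42 in the Mettl3 control and 3.53 and 3.60 in the cKO. C330002G04Rik kept the region 0.164 kb from its start in all 10 libraries, and its far end, 97.6 kb away, had 5.60 and 5.75 in the control, none in KO1 and 8.80 and 5.16 in KO2. Gm32856, which RefSeq lists as protein-coding, kept 2 of its 5 regions in all 10 libraries and lost 1 in the Mettl3 knockouts.

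The summits sat in long exons. Per library 80.7% ± 2.61 (SD, n = 10) of them lay in exons over 400 nt, beside 64.9% ± 4.13 for coding exon summits. Such exons are 24.8% of the 34815 annotated lncRNA exons and hold 72.7% of their bases, so the summit share was near the share of bases. The exon around a summit had a median length of 1279 nt (mean of the 10 library medians), against 182 nt over the annotated exons. Last exons held 40.4% ± 3.02 of the summits and single-exon transcripts 26.0% ± 0.932.

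The share of summits near a GGAC was close for lncRNA and coding exons. It lay within 50 nt of the summit, on the transcript's strand, at 49.4% ± 2.86 of lncRNA and 49.6% ± 1.02 of coding exon summits (SD, n = 10). The difference was -0.282 points ± 2.26, lower in 6 of 10 libraries (exact sign-flip permutation test, two-sided, p = 0.699). Windows shifted by 1000 nt along the same transcripts held it in 28.2% ± 1.74 and 34.6% ± 0.331. Median GC of the windows was 50.7% for lncRNA and 53.8% for coding summits. By group, GGAC lay near 51.6% and 53.0% of the lncRNA summits of the Mettl3 control, 45.4% and 46.8% in KO1, and 46.2% and 47.5% in KO2. The Ythdc1 control had 51.7% and 49.6%, and the cKO 48.8% and 53.0%. The Mettl3 knockout libraries all lay below the control libraries, and they did so for coding exon summits too, at 48.1% to 49.1% against 51.1% and 51.4%. Any DRACH, the wider motif (A, G or U, then A or G, then AC, then A, C or U), which a GGAC not followed by G also matches, was searched on the same strand and lay in 92.0% ± 0.795 of lncRNA and 91.6% ± 0.743 of coding windows.

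**Figure D5:**
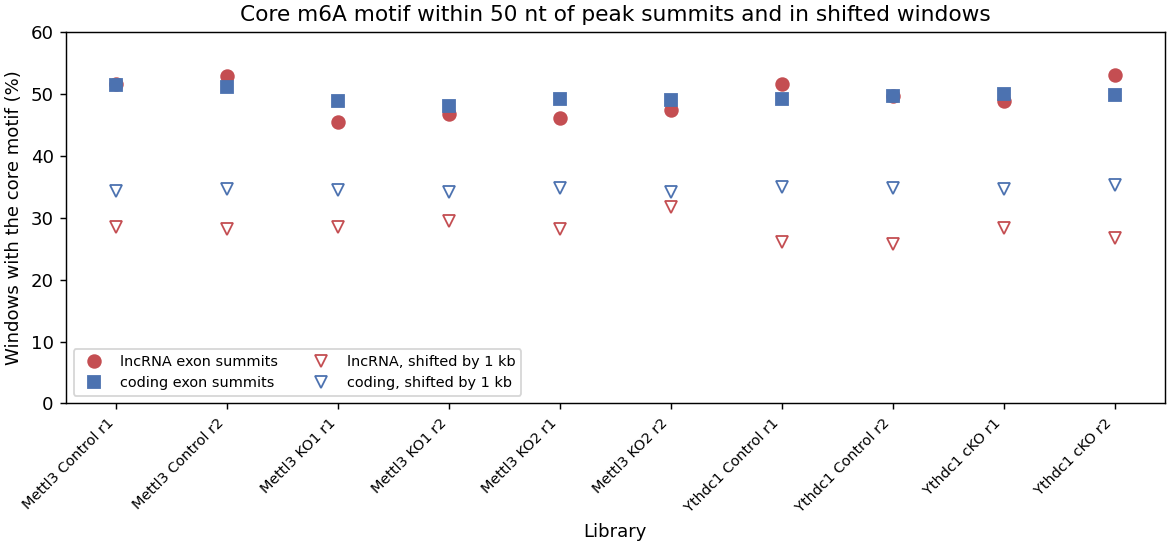
Percent of windows with the core m6A motif within 50 nt of the summit, by library, for lncRNA exons (red circles), coding exons (blue squares) and windows shifted by 1 kb (open triangles). All summit windows lie above 45%, and all shifted windows below 36%.

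At lost regions of the Mettl3 knockouts 34 of 69 windows held GGAC (49.3%, 95% Wilson interval 37.8 to 60.8), and at kept regions 116 of 223 (52.0%, 45.5 to 58.5). In the cKO 26 of 62 lost (41.9%, 30.5 to 54.3), 211 of 395 kept (53.4%, 48.5 to 58.3) and 31 of 73 gained regions (42.5%, 31.8 to 53.9) held it. The intervals of lost and kept regions overlap in both comparisons and cover counting error only. Lost regions lay in longer exons than kept ones in the Mettl3 comparison, at a median of 1582 against 1073 nt, and in shorter ones in the cKO, at 679 against 1096 nt.

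Some members share their summit sequence. In 85 of the 893 regions (9.52%) the window around the summit held a run of 20 bases also found, on either strand, in another region's window. The largest set, picked out after its values were seen, joined 12 regions of 11 lncRNA genes, among them Gm36445, Gm47469, Gm46430, Gm5165 and Gm20939, and 5 of them share the stretch in capitals here. As background, a run of this kind is typical of the linker between the fingers of C2H2 zinc finger proteins, and GENCODE M21 types the genes printed here as lincRNA.
Gm36445, chr13:65249395-65249444, plus strand: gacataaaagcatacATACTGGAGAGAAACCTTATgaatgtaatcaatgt
Gm47469, chr13:74554110-74554159, minus strand: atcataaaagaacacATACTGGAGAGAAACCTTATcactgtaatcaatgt
Gm5165, chr17:17265783-17265832, plus strand: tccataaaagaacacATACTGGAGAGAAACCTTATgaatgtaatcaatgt
Gm20939, chr17:94876281-94876330, plus strand: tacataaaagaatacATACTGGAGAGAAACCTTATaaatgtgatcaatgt
Of the 10 regions of this set with a peak in both Mettl3 controls, 9 were kept and none was lost in the knockouts, and of 9 in the Ythdc1 control 9 were kept. Another region of the set, 1 in number, was gained in the cKO. Over all regions 58.2% were kept and 12.8% lost in the Mettl3 knockouts, and 72.4% kept and 27.9% gained in the cKO. Gm36445 had 7.30 and 10.1 in the control, 10.8 and 6.74 in KO1 and 10.6 and 9.86 in KO2. Gm47469 had 6.62 and 13.7, then 6.80 and 5.81, then 8.58 and 8.87.

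A second set of 5 regions was picked out in the same way. All 5 had a peak in both Mettl3 controls, 2 were lost in all knockout libraries, 3 were absent from both KO1 libraries and 1 was kept. Over all regions 12.8% were lost, 23.8% were absent from both KO1 libraries and 58.2% were kept. It joins Gm47808, Gm48754, Gm48829, AC125075.1 and B230354K17Rik, and 4 of them share the capitals here.
Gm47808, chr12:11508801-11508850, minus strand: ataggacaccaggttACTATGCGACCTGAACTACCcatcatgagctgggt
Gm48754, chr13:17935854-17935903, plus strand: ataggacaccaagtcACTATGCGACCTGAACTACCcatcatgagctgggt
Gm48829, chr13:18641832-18641881, minus strand: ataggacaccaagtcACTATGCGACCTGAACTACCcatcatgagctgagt
AC125075.1, chr19:47598812-47598861, minus strand: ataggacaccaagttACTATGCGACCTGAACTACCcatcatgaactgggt
AC125075.1 had 10.5 and 10.3 in the Mettl3 control, none in KO1, 5.66 and 4.57 in KO2, none in the Ythdc1 control and 5.62 and 7.15 in the cKO. Gm48754 had 8.92 and 8.98 in the control, 3.43 in 1 KO1 library, and 4.85 and 3.71 in KO2. Reads from near-identical copies could have been placed at either, so single values of both sets are uncertain.

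Strand also limits some members. A peak on the opposite strand overlapped 10.3% to 16.5% of the lncRNA exon peaks of a library, beside 5.01% to 8.80% of coding exon peaks, and it was the stronger in 5.69% to 9.92%, beside 0.397% to 1.11%. A stronger opposite peak was present at 13.0% of kept, 10.1% of lost (Mettl3), 19.2% of gained and 3.23% of lost (cKO) regions. Where this holds, reads of a gene and of its antisense partner may not be fully separate, and this was not tested. RefSeq lists 330 of the 617 genes as lncRNA and 19 as protein-coding, the latter with 37 regions, and 251 could not be matched.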

How the data were processed

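The 10 deposited peak lists (narrowPeak) were read as the authors made them, 1 per immunoprecipitated library. The mm10 build, the aligner HISAT2 2.1.0, the trimmer Trimmomatic 0.38, the peak caller MACS2 and CASAVA are named, per the submitters' processing notes; settings, and the use of inputs, are not given in the sources used here. Each deposited peak has a display score, a fold enrichment (a ratio), −log10 p and −log10 q from the authors' caller, and a summit; all have a −log10 q of at least 2. The score was not used. Fold was used only within a list.

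Summits were annotated with GENCODE M21 basic (GRCm38). Percent absent, shares and motif counts were computed per library with Python 3 scripts, pandas and numpy, checked on simulated data, and compared with exact permutation tests. The background pile-up was solved from fold and p for 2000 of the weaker plus-strand peaks per library. Of these, at least 99.9% gave whole reads within 0.002 on the −log10 scale. Groups came from the sample titles. The members, lists and tests were chosen with earlier results of these data known.

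Named regions were, in each comparison, the 8 lost, gained and kept regions of highest fold by their lowest defining library, 1 per gene, the 8 genes with most regions, and up to 6 genes per list by fold. Alternatives were a −log10 q of 5, equal list lengths, other overlaps and region definitions, left-out libraries and a replicate block. Leaving out RefSeq protein-coding genes, members under stronger opposite-strand peaks and shared summit windows was added after the data were seen.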

Additional observations from a re-analysis of the deposited data

Results flagged for a closer look

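In 2 measures every Mettl3 knockout library moved one way and both Ythdc1 cKO libraries the other. The share of lncRNA exon peaks among exonic peaks was lower than the mean of the own control in all 4 Mettl3 knockout libraries, by a mean of -0.495 points, and higher in both cKO libraries, by 0.466 points. Control regions of lncRNA exons were absent more often than those of coding exons in all 4 Mettl3 knockout libraries, by 16.1 points, and less often in both cKO libraries, by -4.08 points. In the Mettl3 knockouts the mean absence was 32.4% for lncRNA exons, beside 26.4% over all regions. In the cKO it was 16.5% for lncRNA exons, beside 22.7% over all regions. The difference between the 2 comparisons was not tested in either measure. Groups of 2 libraries are too small for a check of outlying samples.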

How the results depend on the processing

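Of 122 alternative values for the 9 results, 105 kept their direction and, for counts, stayed within 1.5 times the main value. The loss of lncRNA exon regions against coding exon regions in the Mettl3 knockouts was positive under all its 15 alternatives. Lost regions of the Mettl3 knockouts were 112 in place of 69, and gained ones 11 in place of 2, where 1 knockout library could disagree. Gained regions of the Mettl3 knockouts were 5 with equal list lengths, 5 with an overlap of 50% of the shorter peak and 1 without protein-coding genes of RefSeq, and 3 to 6 with a library left out. With a library left out, lost regions were 74 to 99 in the Mettl3 knockouts and 79 to 110 in the cKO, the latter without Ythdc1 control replicate 2, and gained regions of the cKO were 85 to 116, the latter without cKO replicate 1; fewer libraries have to agree, so these counts rise by construction. The Ythdc1 share of lncRNA exon peaks reversed to 0.466 points among exonic peaks; the cause was not tested. The GGAC difference reversed to 0.753 points within 25 nt, to 0.417 points for DRACH, to 0.0712 points without KO1 replicate 1 and to 0.0185 points without KO2 replicate 1, and over left-out libraries it ran from -0.672 to 0.0712. All 42 named calls stayed as they were at a −log10 q of 5 and with equal list lengths. Both settings only take away weaker peaks, and the named regions were picked for high fold. The outcome was therefore largely set by the choice of regions and says little about robustness.

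With the replicate block, where labels are permuted only within a replicate number, p was 0.222 for the Mettl3 share of -0.180 points and 0.5 for the Ythdc1 share of -0.109 points. Deviations in fold of same-numbered libraries correlated at 0.00193 to 0.0309 over regions with a peak in every library of both groups. Same-numbered libraries thus showed little shared deviation in fold at these regions. Shared effects on which peaks were called, or on depth, cannot be seen this way and were not tested. A missing peak can reflect the depth of a library, and read totals are not given in the sources used here.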
